A study of Homo sapiens with 12 samples.

Results

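The HOX genes are the homeobox genes of the HOXA, HOXB, HOXC and HOXD clusters. The members described here are the 22 rows, of 26231 genes in the authors' normalized table, whose gene name is HOX followed by a cluster letter and a number. They comprise 9 HOXA, 6 HOXB, 5 HOXC and 2 HOXD genes. The annotation lists 39 HOX genes, 11 in HOXA, 10 in HOXB, 9 in HOXC and 9 in HOXD, and the other 17 had 0 reads in the count tables of all 12 libraries. Of these 17, HOXC5 and HOXD3 share 100% and 98.3% of their last 300 exonic bases with a gene on the same strand. In HOXA7 and HOXD1 100% of that stretch lies opposite an antisense gene. Reads there may be counted for neither gene, so 0 reads do not show that the RNA was absent. RNA was taken from ALDH+ cells of the line 697 (EU3), which derives from a B-cell precursor leukaemia. Every group was sorted for high aldehyde dehydrogenase activity. Doxycycline-treated SH2 cells (SH2 + dox, n = 4) expressed an inducible shRNA with an eGFP reporter. It targets IGF2BP1, which binds RNA and is normally made before birth. These cells were sorted again for the reporter after treatment. Untreated SH2 cells (n = 4) carried the same construct without doxycycline. Doxycycline-treated and untreated control cells (n = 2 each) are labelled only as the control for doxycycline, and whether the protocol's scrambled shRNA is in them is not stated. Replicates are numbered sets, each a new ALDH+ selection with its own doxycycline treatment: sets 1 to 4 for SH2 and sets 2 and 4 for control cells.

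HOX genes encode homeodomain transcription factors that lie side by side in each cluster, ordered by paralogue number, and genes of the same number in different clusters are paralogues. Low-numbered genes lie at the 3′ end of a cluster and are expressed earliest and most anteriorly in the embryo, and high-numbered genes lie at the 5′ end. In blood, several HOXA and HOXB genes are expressed in stem and progenitor cells and are shut off as cells mature. High HOXA expression marks leukaemias with KMT2A rearrangement, and HOXB4 is known for expanding blood stem cells when overexpressed. The series title names HOXB4 as a gene that IGF2BP1 regulates.

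Paralogue position 4 held the most HOX reads in both kinds of cells. The homeoboxes of HOXA4 and HOXC4, the stretches that encode the DNA-binding homeodomain, are shown for how far 2 tested paralogues of position 4 differ in their DNA-binding part. They were read from GENCODE v29 transcripts (GRCh38), 180 bases each, 5′ to 3′ on the coding strand. HOXA4 has its homeobox at chr7:27129366-27129545 (minus strand) and HOXC4 at chr12:54054876-54055055 (plus), each within 1 coding exon. Capitals mark the 39 positions at which the 2 sequences differ.
HOXA4: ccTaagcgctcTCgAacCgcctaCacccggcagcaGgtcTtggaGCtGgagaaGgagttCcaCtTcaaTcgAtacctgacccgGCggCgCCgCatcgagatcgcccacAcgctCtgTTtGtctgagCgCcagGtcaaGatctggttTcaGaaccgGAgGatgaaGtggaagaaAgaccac
HOXC4: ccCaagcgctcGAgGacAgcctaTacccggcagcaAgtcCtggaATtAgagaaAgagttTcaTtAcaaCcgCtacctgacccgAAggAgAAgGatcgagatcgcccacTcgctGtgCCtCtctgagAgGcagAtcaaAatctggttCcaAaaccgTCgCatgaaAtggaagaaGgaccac
The 2 had the same base at 78.3% of positions, and the longest run shared at the same positions was 15 bases. The homeodomains they encode differed less, with 57 of 60 residues alike. Reads of these libraries come mainly from the transcript's end rather than from the homeobox.

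HOX reads were few. Of 2210291 to 3370952 reads assigned to genes per library, the members took 7 to 141, and 846 in all: 353 in the 8 SH2 libraries and 493 in the 4 control libraries. Of the 22 members, 21 had at least 1 read, 11 had 10 or more, and 4 (HOXA4, HOXB4, HOXB7 and HOXC4) passed the filter on low counts and were tested. In the count tables IGF2BP1, the targeted gene, had 178 reads in treated SH2, 386 in untreated SH2, 4 in treated control and 3 in untreated control cells, so control cells had almost none before any knockdown. All 11 B-cell precursor markers were detected in every group, myeloid markers summed to at most 17.1 CPM (reads per 1000000, library sizes scaled by TMM) and erythroid markers to at most 1.25 CPM. Blood stem cell markers summed to at most 21.3 CPM in SH2 and 5.1 CPM in control libraries, with HLF at 0 in all groups. The light chains differed between the cells: IGKC reached at most 1.8 CPM in SH2 libraries, against 843 CPM or more in control libraries, while IGLC3 was at 119 CPM or more in SH2 and at most 1.89 CPM in control libraries. T cell markers summed to 27.7 to 113 CPM in SH2 libraries, to 594 and 576 CPM in the treated and untreated control libraries of set 2, and to 15.2 and 51.5 CPM in those of set 4. The part of these differences in the HOX results was not tested, and what separates SH2 from control cells beyond the construct cannot be told apart from it.

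The 2 kinds of cells used different HOX clusters. In SH2 cells HOXA took 80.5% of HOX reads, HOXC 14.7%, HOXB 4.25% and HOXD 0.567%. In control cells HOXB took 72.8%, HOXC 21.7%, HOXA 5.27% and HOXD 0.203%. Since each read comes from the end of 1 transcript, these shares were not divided by gene length. The summed HOXA level was 13.1 ± 7.67 CPM in treated SH2 and 10.6 ± 3.74 CPM in untreated SH2 cells (SD, n = 4 each), against 1.21 ± 0.0955 CPM in treated control and 4.15 ± 2.81 CPM in untreated control cells (SD, n = 2 each). Summed HOXB was 0.0838 ± 0.168 CPM in treated SH2 and 1.18 ± 0.434 CPM in untreated SH2 cells, against 35.7 ± 5.41 CPM in treated control and 32.9 ± 13.5 CPM in untreated control cells. Every SH2 library thus lay below every control library for summed HOXB. For summed HOXA the ranges overlapped: the treated SH2 library of set 1, at 2.08 CPM, lay below both untreated control libraries, at 6.14 and 2.16 CPM. Summed HOXC was 2.56 ± 1.25 CPM in treated SH2, 1.9 ± 1.39 CPM in untreated SH2, 10.9 ± 2.83 CPM in treated control and 9.22 ± 0.318 CPM in untreated control cells.

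**Figure D1:**
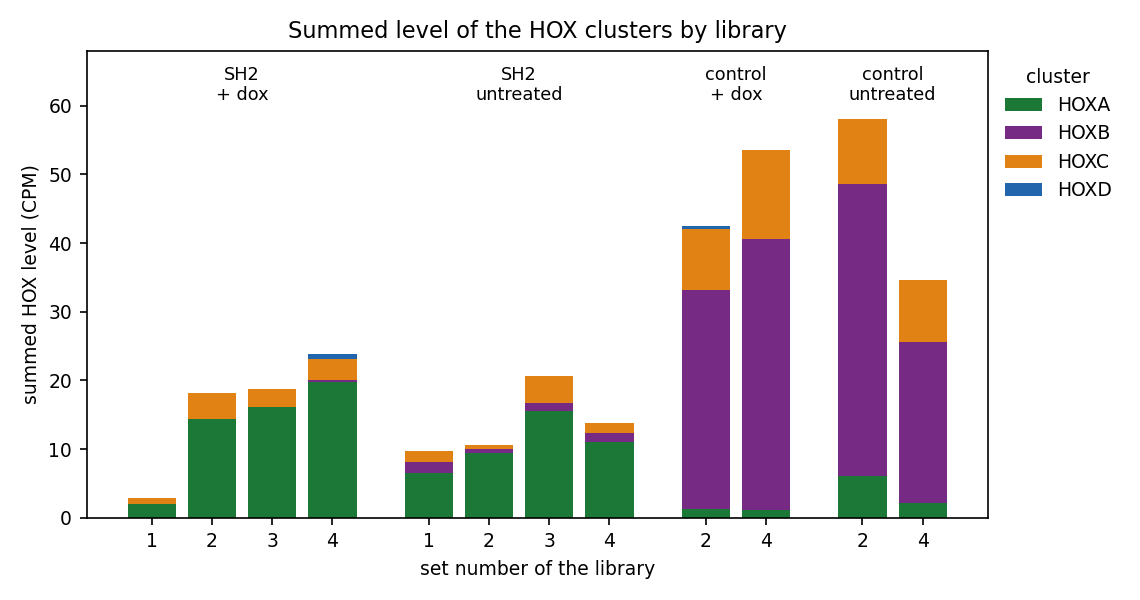
Summed CPM of the members of each HOX cluster (stacked colours) in each of 12 libraries, by group and set number. SH2 bars are mostly HOXA and reach 23.8 CPM at most; control bars are mostly HOXB and run from 34.5 to 58.1 CPM.

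All members together summed to 15.9 ± 9.01 CPM in treated SH2 and 13.7 ± 4.93 CPM in untreated SH2 cells, against 48 ± 7.91 CPM in treated control and 46.3 ± 16.6 CPM in untreated control cells. Fewer cells that express a gene and less of its RNA per cell cannot be told apart in these bulk libraries. By position, genes 4 to 8 took 78.5% of HOX reads in SH2 and 90.9% in control cells. Genes 9 to 13 took 8.5% in SH2 cells and 1.22% in control cells, and genes 1 to 3 took 13% in SH2 cells and 7.91% in control cells. Paralogue position 4 alone took 53% in SH2 and 72% in control cells, with HOXA4 leading in SH2 cells and HOXB4 in control cells.

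**Figure D2:**
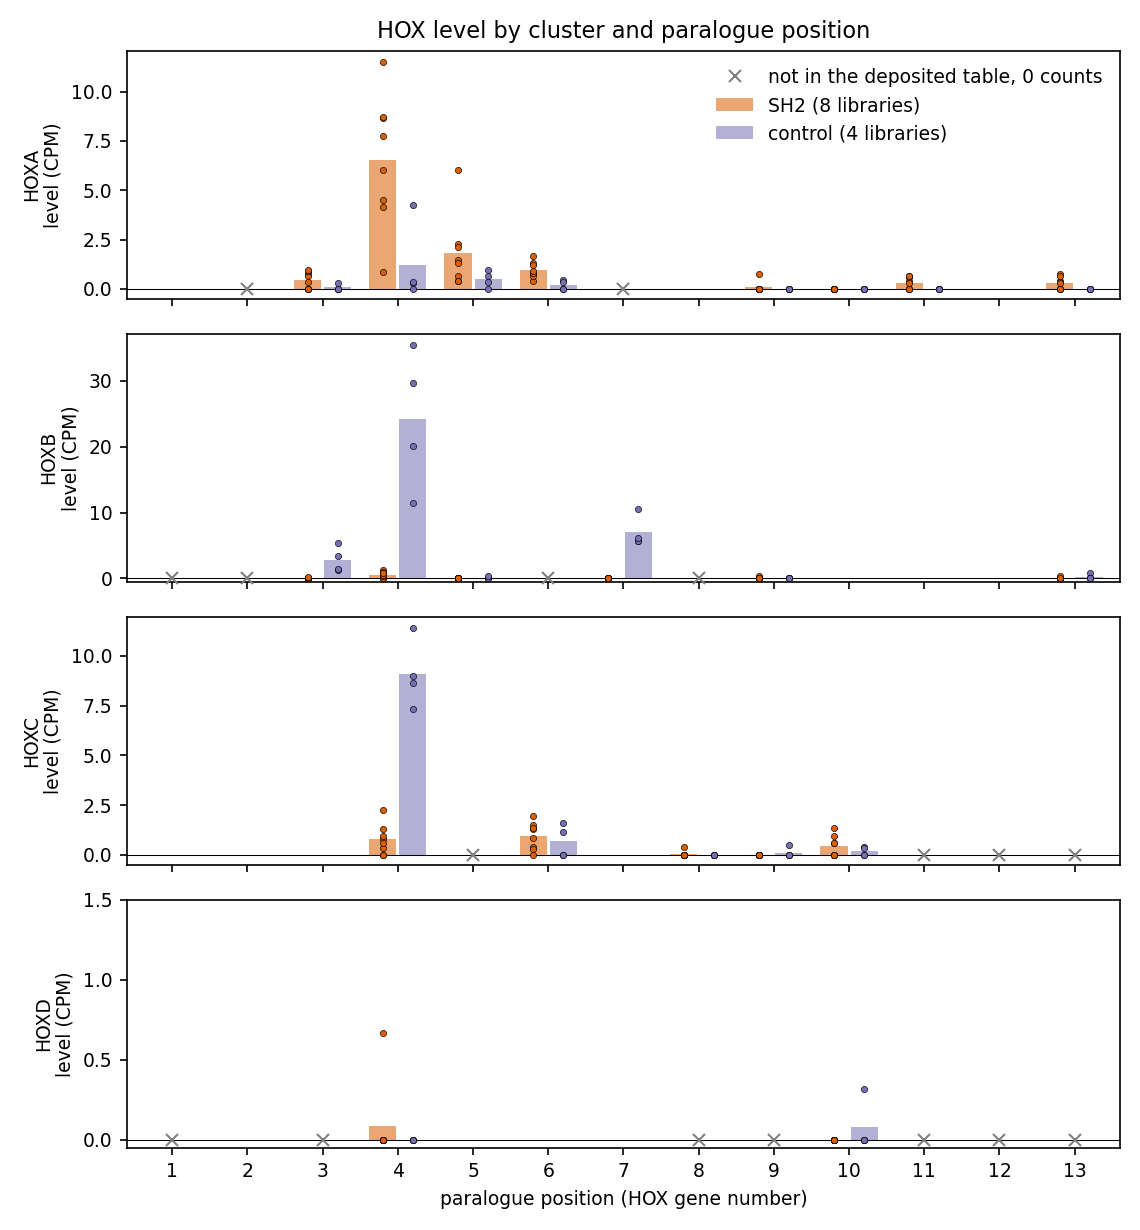
CPM of the HOX genes, 1 member left out, by cluster (panels) and paralogue position (horizontal axis). Bars are means over 8 SH2 and 4 control libraries, points are single libraries, and crosses mark genes at 0 reads that the deposited table lacks. Position 4 stands out for HOXA in SH2 and for HOXB and HOXC in control libraries.

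Among the anterior genes, HOXA3, needed for thymus and parathyroid development in mouse, had 0, 2, 2 and 1 reads in treated SH2, 0, 3, 3 and 0 in untreated SH2, 1 and 0 in treated control, and 0 and 0 in untreated control libraries. HOXB3, the neighbour of HOXB4, had 0 reads in all 4 treated SH2 libraries and 0, 0, 0 and 1 in untreated SH2 libraries. It had 4 and 9 reads in treated control libraries, and 3 and 15 in untreated control libraries. The single HOXB3 read among 8 SH2 libraries lay below each control library, so the groups did not overlap.

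HOXB3 did not pass the filter. In the edgeR fit without that filter, over 24675 genes, it was lower in untreated SH2 than in untreated control cells (1 read against 18, log2 fold change -4.80 ± 1.30 SE, adjusted p = 0.00621). Against a floor of 3 reads over the group, it was 8.33-fold lower in treated SH2 than in treated control cells (0 reads against 13, edgeR adjusted p = 0.0046). That fold leaves out the counting error of the 13 reads. In that fit 3.36% of all genes were called lower among untreated and 4.24% among treated cells. No further member was called in it beyond the genes described next.

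HOXA4, a gene of position 4, was the most counted HOX gene of SH2 cells, with 155 of its 166 reads there. It had 0.834, 8.69, 11.5 and 8.72 CPM in treated SH2 libraries of sets 1 to 4, and 4.49, 4.13, 7.74 and 6.01 CPM in untreated SH2 libraries. In control libraries of sets 2 and 4 it had 0.319 and 0 CPM with doxycycline, and 4.25 and 0.36 CPM without. Treated SH2 libraries all lay above treated control libraries, the one of set 1 least, whereas the untreated control library of set 2 lay among the untreated SH2 libraries. Between treated cells HOXA4 was higher in SH2, by 5.13 ± 1.31 (SE) on the log2 scale (86 reads against 1, edgeR adjusted p = 0.0212), a count ratio of 44.8 (exact 95% interval 7.82 to 1788). This call was lost when either treated control library was left out (edgeR adjusted p = 0.0913 without set 2 and 0.171 without set 4). Between untreated cells the log2 difference was 1.34 ± 0.93 (69 reads in SH2 against 10 in control cells, edgeR adjusted p = 0.491). Of the last 300 exonic bases of HOXA4, the stretch nearest to where reads are captured, 84.7% lie opposite the antisense gene HOXA-AS3. The strand setting of the authors' counting is not given in the sources used here. Reads in that overlap may thus have been set aside as ambiguous and counted for neither HOXA4 nor its antisense partner. HOXA-AS3 itself had 0, 1, 1 and 0 reads in treated SH2, 2, 1, 1 and 3 in untreated SH2, 0 and 0 in treated control, and 1 and 0 in untreated control libraries.

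HOXB4 was the most counted HOX gene of control cells, with 248 of its 260 reads there. In treated SH2 libraries it had 0, 0, 0 and 1 reads, and in untreated SH2 libraries 3, 2, 3 and 3. The control libraries of sets 2 and 4 had 63 and 78 reads with doxycycline, and 75 and 32 without. As levels, this was at most 0.335 CPM in treated SH2 and 0.59 to 1.22 CPM in untreated SH2 libraries, against 20.1 and 29.7 CPM in treated control and 35.4 and 11.5 CPM in untreated control libraries. SH2 and control libraries thus fell into separate ranges, and both control sets had HOXB4. HOXB4 was lower in SH2 cells by edgeR both with doxycycline (log2 fold change -7.54 ± 0.74 SE, adjusted p = 2.45e-05) and without it (-4.62 ± 0.57 SE, adjusted p = 0.000185). The treated value rests on 1 SH2 read against 141, for which the control level was 271 times the SH2 level (exact 95% interval 47.8 to 10775). Of its last 300 exonic bases 12.7% are shared with a gene on the same strand, and HOXB3 transcripts span HOXB4. Reads in shared bases may have been set aside as ambiguous and counted for neither gene.

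HOXC4 was the third gene of position 4 to be tested. It had 0, 2.27, 1.31 and 0.335 CPM in treated SH2 libraries and 0.816, 0, 0.967 and 0.601 CPM in untreated SH2 libraries. In control libraries it had 7.33 and 11.4 CPM with doxycycline, and 8.97 and 8.64 CPM without. The highest SH2 library was below the lowest control library. HOXC4 was lower in SH2 cells with doxycycline (log2 fold change -3.19 ± 0.82 SE, edgeR adjusted p = 0.022) and without it (-3.83 ± 0.86 SE, edgeR adjusted p = 0.0133). Leaving out either treated control library ended the first call (adjusted p = 0.0551 without set 2 and 0.161 without set 4 in edgeR), and leaving out either untreated one ended the second (0.0782 without set 2 and 0.0634 without set 4). HOXD4, the remaining gene of position 4, had 2 reads, both in the treated SH2 library of set 4.

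HOXB7, a central gene of its cluster, was detected in control cells and in no SH2 library. It had 0 reads in each of the 8 SH2 libraries, against 33 and 15 in treated control and 12 and 17 in untreated control libraries. HOXB7 was 30.7-fold lower in treated SH2 than in treated control cells (0 reads against 48, edgeR adjusted p = 0.00438). In untreated cells it was 24.2-fold lower in SH2 (0 reads against 29, edgeR adjusted p = 0.00755). Both folds use a floor of 3 reads over the SH2 group and leave out counting error of the control reads. The HOXB4 and HOXB7 calls held whichever library was left out. HOXB7 lies 27.1 kb from HOXB4, and of the genes between them HOXB5 had 1 read in 1 control library and HOXB6 had none.

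**Figure D3:**
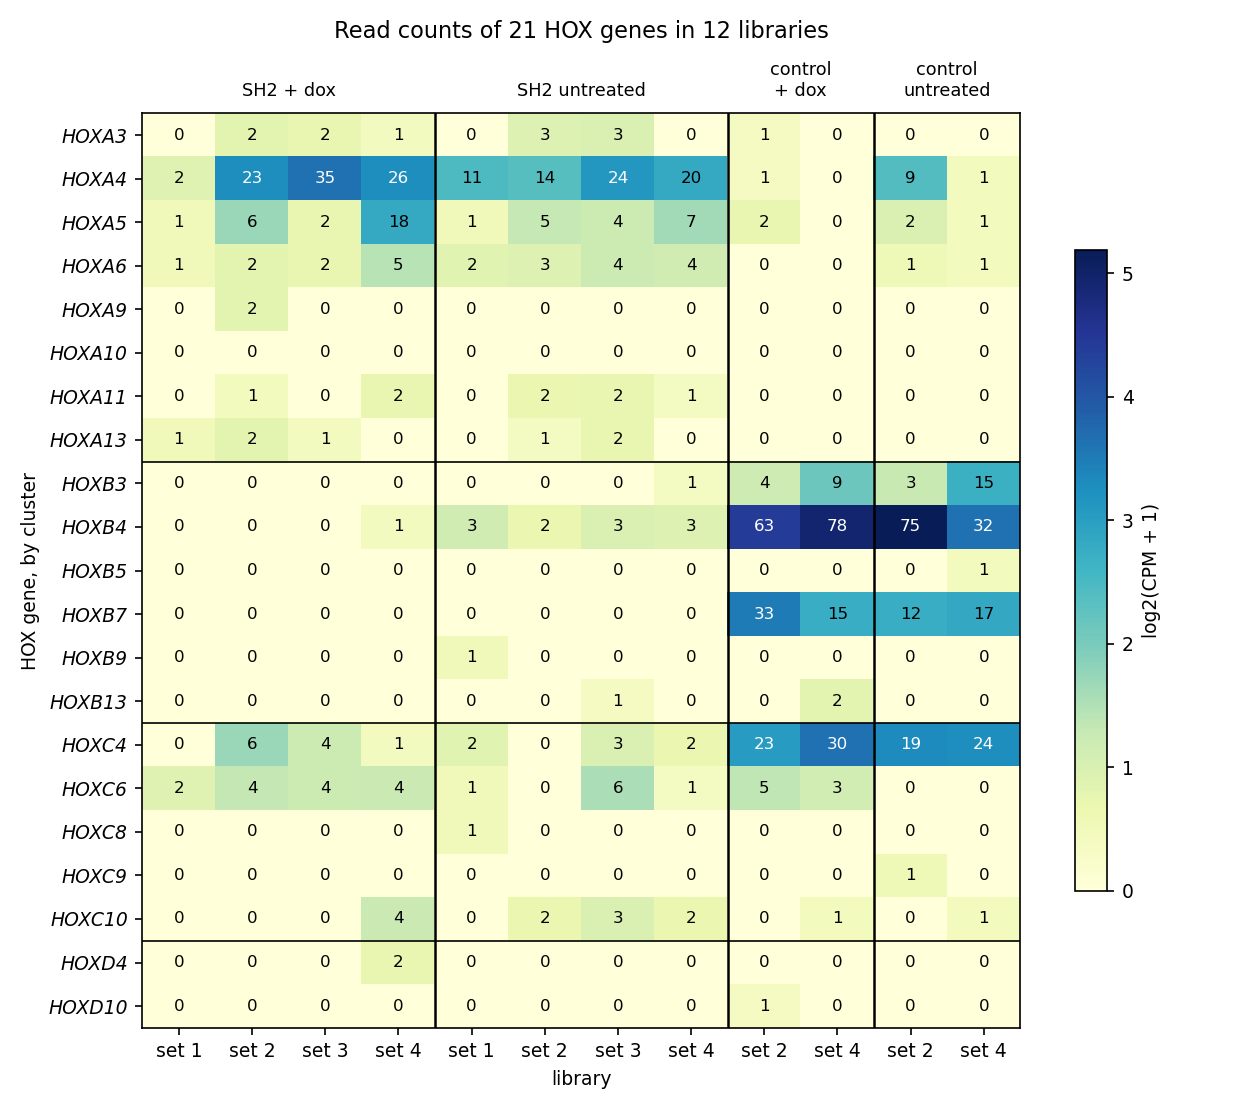
Reads of 21 members (rows, by cluster) in 12 libraries (columns, by group and set). Numbers are reads, and colour is log2(CPM + 1). The rows of HOXA4, HOXA5 and HOXA6 have reads in all SH2 columns, and HOXB3, HOXB4, HOXB7 and HOXC4 have most of their reads in control columns.

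Of the 4 members tested, 1 was called higher and 3 lower in treated SH2 than in treated control cells, where 4.6% of 11968 genes were called higher and 6.48% lower (11.1% in all). Between untreated cells 0 were called higher and 3 lower, against 2.94% and 4.9% of all genes (7.84% in all). HOXB4, HOXB7 and HOXC4 passed the filter through control libraries and HOXA4 mostly through SH2 libraries. These counts are therefore a description, and nothing is read from them. The fit without a filter called the same members and HOXB3. HOXB3, HOXB4, HOXB7 and HOXC4 had CPM values in all 8 SH2 libraries below those of all 4 control libraries. Of the 11968 genes that passed the filter 8.59% did so, a share that does not cover genes as low as HOXB3 and HOXA6. No member was higher in all 8 SH2 libraries than in all 4 control libraries, as were 6.99% of the genes tested. Within treated cells the same 4 members were lower in every SH2 library, as were 16.6% of genes, and HOXA4 and HOXA6 were higher in every one, as were 15.4%. Within untreated cells these 4 were again lower (17.4% of genes), and HOXA6 was higher (15.5%).

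The remaining central HOXA genes had more reads in SH2 cells, at low depth. HOXA5 had 0.417, 2.27, 0.656 and 6.03 CPM in treated SH2 and 0.408, 1.48, 1.29 and 2.1 CPM in untreated SH2 libraries. It had 0.638 and 0 CPM in treated control and 0.944 and 0.36 CPM in untreated control libraries. These ranges overlapped, and the treated SH2 library of set 4 was the highest. HOXA6 had 0.417, 0.756, 0.656 and 1.68 CPM in treated SH2 and 0.816, 0.885, 1.29 and 1.2 CPM in untreated SH2 libraries. It had 0 and 0 CPM in treated control and 0.472 and 0.36 CPM in untreated control libraries. Each SH2 group of HOXA6 lay above the control group of the same treatment, but the treated SH2 library of set 1, with 1 read, lay below the untreated control library of set 2, also with 1 read. Neither gene was called in the edgeR fit without a filter (adjusted p = 0.246 for both with doxycycline and 0.795 for both without).

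HOXC6 did not follow the clusters' division. It had 2, 4, 4 and 4 reads in treated SH2 libraries, 1, 0, 6 and 1 in untreated SH2, 5 and 3 in treated control, and 0 and 0 in untreated control libraries. Both treated control libraries were above both untreated ones, 2.26-fold over the group against a floor of 3 reads (8 reads against 0), but the edgeR fit without a filter gave an adjusted p = 1. HOXC10, a posterior gene of limb and lumbar patterning, had 0, 0, 0 and 4 reads in treated SH2, 0, 2, 3 and 2 in untreated SH2, 0 and 1 in treated control, and 0 and 1 in untreated control libraries. The ranges of HOXC10 overlapped.

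The posterior HOXA genes had few reads, all of them in SH2 libraries. HOXA11, a limb and uterus gene, had 8 reads over the SH2 libraries and 0 over the control libraries, at most 2 per library. HOXA13, a gene of the digits and genital tract, had 7 reads in SH2 and 0 in control libraries, also at most 2 per library. Against the floor of 3 reads over 4 control libraries these were 1.22-fold and 1.07-fold higher in SH2 cells. Counting error of the SH2 reads is left out, so neither value is a lower bound. HOXA9, the HOXA gene best known in myeloid leukaemia, had 2 reads, both in the treated SH2 library of set 2, and HOXA10 had none. A count of 0 allows up to 3 reads, or 0.885 to 1.42 CPM per library, so lower levels of HOXA9 and HOXA10 were not detectable at this depth. HOXB13 had 3 reads, and HOXB5, HOXB9, HOXC8, HOXC9 and HOXD10 had 1 each.

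Induction of the shRNA was the comparison for which the series was designed. None of the 4 members tested was called between treated and untreated SH2 cells, where 0.0167% of all genes were called (2 of 11968, and 584 at an unadjusted p under 0.05). DESeq2 called 17 genes, none of them a member. HOXB4 had the smallest p of the members: 1 read over treated SH2 libraries against 11 over untreated ones, with the count lower in the treated library of each of the 4 sets. The log2 fold change was -2.82 ± 0.92 (SE, edgeR p = 0.00824, adjusted p = 0.983), and the untreated level was 9.93 times the treated one (exact 95% interval 1.44 to 427, counting error only). HOXB4 was the 1 member whose treated SH2 libraries all lay below all untreated ones, as 2.03% of the genes tested did, and no member lay above, as 1.38% did. The HOXB sum behaved alike because HOXB4 makes up most of it, with 0, 0, 0 and 0.335 CPM in treated SH2 and 1.63, 0.59, 1.29 and 1.2 CPM in untreated SH2 libraries.

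The HOXA genes showed no common direction over the sets. Summed HOXA in treated SH2 was 0.319 times its untreated level in set 1, 1.52 times in set 2, 1.04 times in set 3 and 1.78 times in set 4. HOXA4 was at 0.186, 2.1, 1.48 and 1.45 times its untreated level in sets 1 to 4, so set 1 went against the other 3 sets. Its log2 fold change was 0.42 ± 0.65 (SE, edgeR adjusted p = 0.986). HOXC4 gave 0.73 ± 0.89 (SE, edgeR adjusted p = 0.986), and HOXB7 had no read in either group.

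In control cells doxycycline gave no call among the 4 members or among all genes (0% called, 82 genes at an unadjusted p under 0.05, and 0 called by DESeq2). HOXB4 gave 0.09 ± 0.57 (SE) on the log2 scale, HOXB7 0.46 ± 0.83 and HOXC4 0.09 ± 0.88 (edgeR adjusted p = 1 for all). HOXB4 moved in opposite directions in the 2 sets, to 0.567 times its untreated level in set 2 and 2.58 times in set 4. HOXA4 gave -3.37 ± 1.51 (SE, edgeR adjusted p = 1). It rests on 1 treated read against 10 untreated, of which 9 came from the library of set 2. The doxycycline responses of SH2 and control cells were not called different for any member (0% of genes called, 116 at an unadjusted p under 0.05, and 3 called by DESeq2, none a member). That difference was 3.79 ± 1.65 (SE) for HOXA4, -2.91 ± 1.08 for HOXB4 and 0.64 ± 1.21 for HOXC4 on the log2 scale (edgeR adjusted p = 1 for each). The SH2 and control comparisons above share libraries with these.

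**Figure D4:**
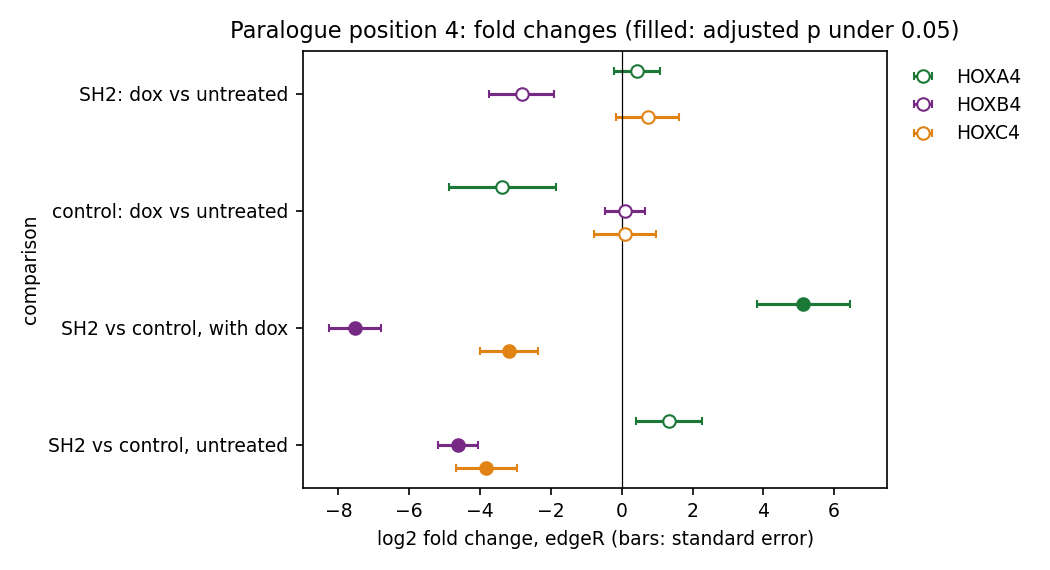
Log2 fold changes (points) with standard errors (bars) from edgeR for the tested genes of position 4 in 4 comparisons. Filled points passed the threshold: they occur between SH2 and control cells and in neither doxycycline comparison.

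HOX proteins bind DNA together with TALE homeodomain cofactors of the PBX, MEIS and PKNOX families. Of 9 TALE genes, 5 were tested and 0 were called in any of the 5 comparisons. PBX3 averaged 66.4 ± 12.8 CPM in treated SH2 and 50.6 ± 17.2 CPM in untreated SH2 cells (SD, n = 4 each), against 128 ± 32.8 CPM in treated control and 81.9 ± 8.32 CPM in untreated control cells (SD, n = 2 each). Its difference gave an edgeR adjusted p of 0.0638 with doxycycline (log2 fold change -0.95 ± 0.31 SE) and 0.223 without (-0.70 ± 0.31 SE). With the set as a block, PBX3 passed in both (edgeR adjusted p = 0.00921 and 0.0361), and by DESeq2 it passed with doxycycline (adjusted p = 0.0375). MEIS2 ranged from 3.31 to 10.1 CPM, PKNOX1 from 5.8 to 17.4 CPM and PBX4 from 1.13 to 6.7 CPM over all libraries. MEIS1, the usual leukaemic partner of HOXA9, had 2 reads in 1 treated SH2 library and 2 in 1 treated control library, MEIS3 had 12 reads, all in SH2 cells, and PBX2 and PKNOX2 were at 0. Since reads that were not unique were not counted, these counts of 0 do not show that the RNA was absent.

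Summed over each list, regulators of HOX transcription had far more reads than the HOX genes. Some called below did not: in treated control libraries KDM6A had 9 and 6 reads and RNF2 10 and 19. HOXB4 had 63 and 78 there. Of 19 trithorax and MLL-complex genes, which keep HOX genes active, all were tested. Between treated SH2 and treated control cells 1 was called higher (KDM6A, a remover of the repressive H3K27 methyl mark, 1.67 ± 0.48) and 1 lower (DOT1L, the H3K79 methyltransferase, -1.40 ± 0.36; log2 ± SE, edgeR adjusted p = 0.0375 and 0.0232). Between untreated cells 0 were called. Over all genes 11.1% were called in treated and 7.84% in untreated cells, so these counts, and those of the polycomb list, do not exceed the background by share. Of 32 polycomb genes, which keep HOX genes silent, 29 were tested and PHF1, RING1 and PCGF2 were at 0 in every group. Reads that were not unique are in no gene's count, so a count of 0 does not show that the RNA was absent. KDM2B, which brings a polycomb complex to CpG islands, was lower in SH2 cells with doxycycline (-1.10 ± 0.30) and without it (-1.06 ± 0.30; edgeR adjusted p = 0.032 and 0.0464), and RNF2, a ubiquitin ligase of the same system, was higher with doxycycline (1.45 ± 0.43, adjusted p = 0.043). The median log2 difference of the polycomb list was -0.11 with doxycycline and 0.06 without, against 0.04 and 0.03 over all genes. DOT1L was lost without the treated control library of set 4. KDM6A was lost without any 1 of 5 libraries, RNF2 without any 1 of 9, and KDM2B without any 1 of 4 in treated and 9 in untreated cells.

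The retinoid and CDX list held 16 genes: CTCF, and retinoid and CDX genes, which act upstream of HOX clusters in the embryo. Of these 16, 6 were tested, CTCF among them. RXRA, a retinoid receptor, was higher in treated SH2 than in treated control cells (1.87 ± 0.40, edgeR adjusted p = 0.00811). That call was lost without the treated control library of set 2 (adjusted p = 0.12). ALDH1A2, which makes retinoic acid, had 0, 0, 4 and 0 reads in treated SH2 and none in untreated SH2 libraries, against 92 and 4 in treated control and 70 and 8 in untreated control libraries. Both high values came from set 2, the control libraries with high T cell markers, and the part of these markers in the result was not tested. ALDH1A2 was called lower in SH2 cells with and without doxycycline (edgeR adjusted p = 0.0351 and 0.0163), and each call was lost without the control library of set 2 (adjusted p = 0.621 and 0.243). The treated call was also lost without any 1 of the 4 treated SH2 libraries. Of 10 genes reported as HOXA9 and MEIS1 targets, CDK6, a cell-cycle kinase, was called lower in SH2 cells in both comparisons (-1.60 ± 0.40 in each, edgeR adjusted p = 0.0184 with and 0.023 without doxycycline). CDK6 also lost both calls without the control library of set 2 (adjusted p = 0.406 and 0.49), and the untreated call also without the untreated SH2 library of set 1, 2 or 4. The other 9 of the list were not called. Over all genes 11.1% were called between treated and 7.84% between untreated cells, so 1 call among 10 is near the background. Of the 6 retinoid and CDX list genes tested, 1 was called higher and 1 lower between treated cells. Between untreated cells 1 was called lower. Nothing is read from these counts. None of these lists had a call between treated and untreated cells.

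The noncoding genes of HOXA with 10 or more reads had most of them in SH2 libraries. Of 31 listed, 22 were in the count tables and 1 was tested, HOTAIRM1, at the anterior end of HOXA. It had 5, 14, 10 and 35 reads in treated SH2, 1, 10, 23 and 10 in untreated SH2, 8 and 1 in treated control, and 2 and 4 in untreated control libraries. Its log2 difference between SH2 and control cells was 1.87 ± 1 (SE) with doxycycline and 1.49 ± 1.06 without (edgeR adjusted p = 0.268 and 0.503). HOXA-AS2 had 0, 1, 6 and 7 reads in treated SH2 and 0, 1, 3 and 0 in untreated SH2 libraries, and 0 in all control libraries. Against a floor of 3 reads this was 2.74-fold higher in SH2 over all libraries. HOXA11-AS had 0, 7, 3 and 4 reads in treated SH2 and 0, 2, 0 and 0 in untreated SH2 libraries, and likewise 0 in all control libraries. Neither passed the filter, and both had more reads in treated than untreated SH2 libraries, 14 against 4 for HOXA-AS2 and 14 against 2 for HOXA11-AS. HAGLROS of the HOXD cluster had 0 reads in all SH2 libraries, against 11 and 0 in treated and 5 and 0 in untreated control libraries of sets 2 and 4.

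Among the protein-coding neighbours of the clusters, 19 of 25 were tested and 2 were called, both on the chromosome of HOXB and both higher in SH2 cells. Over all genes 11.1% were called with doxycycline and 7.84% without, so a count of 2 among 19 is near the background. SKAP1, an adaptor of lymphocyte adhesion, lies 98.3 kb from HOXB1. It had 15, 39, 22 and 19 reads in treated SH2 and 8, 29, 35 and 25 in untreated SH2 libraries, and 0 in each control library. Against a floor of 3 reads over the control group, it was 16.5-fold higher in SH2 with doxycycline and 12.9-fold higher without (edgeR adjusted p = 0.00204 and 0.00361). IGF2BP1 itself lies 268 kb from HOXB13 at the other side of the cluster. It had 15, 39, 76 and 48 reads in treated SH2, 53, 103, 121 and 109 in untreated SH2, 3 and 1 in treated control, and 3 and 0 in untreated control libraries. Against control cells, SH2 cells had more of it with doxycycline (4.42 ± 0.80) and without it (5.52 ± 0.84; log2 ± SE, edgeR adjusted p = 0.00278 and 0.000915). Between treated and untreated SH2 cells IGF2BP1 gave -0.99 ± 0.43 (SE, edgeR adjusted p = 0.983). Its treated count was the lower one in each of the 4 sets. SKAP1 and IGF2BP1 kept their calls whichever library was left out. The other 17 neighbours tested were not called, among them CALCOCO2, ATP5MC1, UBE2Z and SNF8, which lie between HOXB13 and IGF2BP1.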

How the data were processed

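Counts are whole reads per gene that the authors deposited for each library. The submitters' processing notes name HTSeq, FastQC, STAR and hg38 (GRCh38). Their versions, the annotation and the strand setting were not given in the sources used here. Per the labels' protocols, libraries were made with QuantSeq 3′ FWD. Each table held 64253 gene IDs and 5 summary lines, left out of library sizes (42.2% to 63.8% of reads not unique, 3.25% to 7.73% outside genes, 1.11% to 1.62% ambiguous). The deposited normalized signal of 26231 genes, for which the notes name DESeq2, is the counts times 1 constant per library (100% of values whole after division, tolerance 0.01), and supplied gene names. The main test is a count test on the deposited counts, which the normalized signal equals after that division.

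Counts were analysed with edgeR 4.0.16 in R 4.3.3: filterByExpr by group (minimum count 10), TMM, 1 term per group over 12 libraries, robust quasi-likelihood test, Benjamini-Hochberg over 11968 genes, threshold 0.05. CPM used TMM-scaled library sizes. Intervals are exact (95%) and cover counting error only, because without molecular identifiers reads may be copies of 1 molecule. Floors are 3 reads over the group in place of a count of 0. Folds against a floor leave out the counting error of the reads in the other group, so they are not lower bounds. Overlap and positions come from GENCODE v29. Members and lists were chosen with earlier results of these data known. HOX genes with 10 or more reads have a value in every library, except 1 member that is not reported here but enters the sums; of each list, the 4 smallest p-values in untreated SH2 against untreated control cells and in treated against untreated SH2 cells could be named, with all TALE genes and noncoding genes with 10 or more reads. KDM6A and RNF2 are outside that rule, chosen with their values in view. CALCOCO2, UBE2Z and SNF8, named for their position, and PHF1, RING1 and PCGF2, named for their counts of 0, are outside it too.

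Set numbers come from the labels. Deviations of same-set treated and untreated SH2 libraries correlated at 0.187 to 0.661, and of other sets at -0.547 to 0.271. All 4 pairs passed the minimum of 0.1, but these ranges overlap. The treated library of set 2 correlated more with the untreated one of set 1 (0.271) than with its own (0.187). The pairing therefore rests on the labels. The reported tests have no term for the set; a fit with the set as a block is an alternative. No replicate pair agreed within sampling noise (chi-square per degree of freedom 8.39 to 47.7). The treated SH2 library of set 4 correlated least with the other SH2 libraries (0.832 to 0.908). Alternatives were DESeq2 size factors, no filter, the set as a block, DESeq2 1.42.0, limma-trend (limma 3.58.1) on log2 of the deposited signal (pseudocount 1), and leaving out libraries. In simulated counts the SH2 doxycycline comparison recovered 20% of genes changed 2-fold and 71% changed 4-fold. The control doxycycline comparison recovered 0% and 28%, and the untreated SH2 against control comparison 3% and 56%, over 11968 genes. The changed genes were drawn at random from all of these, at their mean level over all libraries and without a set effect. These rates are therefore not those of HOX genes with few reads.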

Additional observations from a re-analysis of the deposited data

Results flagged for a closer look

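Among 28 groups of 4 SH2 libraries in which a member or cluster sum was examined for a library standing apart, 4 did so, each with the other 3 libraries at 0. Chance alone sets apart about 5% of groups of continuous values, a rate that does not hold here, since a single read against 0 suffices. All 4 were libraries of set 4. HOXB3 was at 0.3 CPM in the untreated SH2 library and HOXB4 at 0.335 CPM in the treated one, each from 1 read. Summed HOXB in that treated library, also 0.335 CPM, is the same HOXB4 read. HOXC10 was at 1.34 CPM in the treated library, from 4 reads. The treated SH2 library of set 4 also correlated least with the other SH2 libraries, and the part of this in these values was not tested.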

How the results depend on the processing

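Without a filter HOXB3 joined the genes called lower in SH2 cells. DESeq2 size factors, the replicate block, the DESeq2 Wald test, limma-trend and leaving out both SH2 libraries of set 4 called the same members as reported: 4 between treated and 3 between untreated SH2 and control cells, and 0 for doxycycline in either cell or the difference between them. With the block these counts were also 4, 3 and 0, while over all genes 2171 in place of 1326 were called between treated cells, 1505 in place of 938 between untreated cells, 6 in place of 2 for doxycycline in SH2 cells and 1 in place of 0 for the difference in response. The block changed no call of a HOX gene. Leaving out 1 library gave 2 to 5 members between treated and 2 to 4 between untreated cells, and 2 members between treated cells without either treated control library. Requiring 3 reads in 1 library in place of 1 left 9 members detected in SH2 and 7 in control cells, in place of 17 and 15; requiring 10 left 2 and 4. Doxycycline values of control cells changed sign on leaving out 1 library for HOXB4 (-0.50 to 1.11), HOXB7 (-0.05 to 0.84) and HOXC4 (-0.25 to 0.37). In SH2 cells that of HOXC4 ran from 0 to 1.10, and its difference in response from -0.09 to 1.02. None of these was called. A group left with 1 control library was assumed to vary like the others. With 2 control libraries per treatment and 7 to 141 HOX reads per library, changes of most members were not detectable.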
